A study of Chlorocebus aethiops with 36 samples.

Results

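The comparison described here set the liver at week 4 of oligonucleotide dosing against the same animals' livers before dosing. Its members were the 12 arrays of week 4 and the 12 arrays of week -5 (baseline), 24 of the 36 arrays of the series, paired by the animal named in the labels. The value followed throughout was the mean within-animal change over 12 animals, week 4 minus baseline, with both treatment arms pooled.

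All samples were liver biopsies of 12 male African green monkeys, measured on a microarray whose probes were designed on human transcripts (HG-U133 Plus 2.0). At week 4, 6 animals had received anti-miR-33, an oligonucleotide that binds and blocks the microRNA miR-33, and 6 had received a control anti-miR, each at 5 mg/kg under the skin while on chow. At baseline the same 12 animals were on chow and had received neither. A later biopsy at week 12 followed 8 weeks on a diet high in carbohydrate with moderate cholesterol and is given only beside the other times. No group of undosed animals was sampled at week 4, so time, dosing with any oligonucleotide, repeated biopsy and array processing cannot be told apart in this comparison.

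As background, the liver lobule is built of hepatocytes, which make plasma proteins and handle lipids, amino acids and drugs, lined by a fenestrated sinusoidal endothelium. Macrophages of the liver (Kupffer cells) sit within the sinusoids, and stellate cells lie beneath the endothelium and make matrix. Endothelial identity and the zones of the lobule are patterned by Notch, ephrin, vascular endothelial growth factor and Wnt signals. The liver also answers interleukin-6 family cytokines through the shared receptor subunit gp130 (IL6ST) and answers interferons by inducing a set of antiviral genes. In a biopsy, fewer cells of a type and less RNA per cell cannot be told apart.

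Array values were on the log2 scale. Hepatocyte markers were abundant throughout, with an array mean over 23 of them of 11.71 to 12.15 at week 4 (median 11.94), against 11.89 to 12.06 at baseline (median 11.98). Arrays correlated with each other at 0.971 to 0.993. The array carries control probe sets at both ends of the GAPDH and ACTB transcripts, and their mean 3′ minus 5′ difference is read as a sign of RNA degradation or incomplete copying when it is large. It averaged 1.94 ± 0.41 at week 4 and 2.57 ± 0.43 at baseline (SD, n = 12 each), a change of -0.63 ± 0.13 (SE), and it fell in 10 of 12 animals (exact sign permutation, two-sided p = 0.00195). It did not fall in 2 animals, control 4 (0.16) and control 6 (0.06), and the changes in these animals are therefore given beside the main results. Their lack of a fall rests on GAPDH, since by ACTB alone the difference fell in 12 of 12 animals. The ACTB difference went from 2.18 to 2.17 in control 4 and from 2.07 to 1.91 in control 6. The measure moved with time, and its part in each gene result was not tested beyond its use as a covariate. By their labels the week 4 arrays were numbered apart from the baseline and week 12 arrays. Week 4 and any difference in array processing that goes with the numbering cannot be told apart. The week 4 array of control animal 1 was labelled with the high carbohydrate diet, unlike the other 11. The highest value on the week 4 array was 14.28 in anti-miR-33 animal 5 and 14.80 in control animal 6, against at least 14.98 on the other 22 arrays.

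Of 13632 genes tested with limma, 4602 (33.8%) were called at an adjusted p under 0.05. Of these, 1899 (13.9%) were higher and 2703 (19.8%) lower at week 4, while the median change of all genes was -0.01. Most changes were small: 149 called genes were higher and 348 lower by over 0.5, and 7 were higher and 29 lower by over 1. The called genes that moved the same way in 12 of 12 animals numbered 342 upward and 638 downward. The week 4 and baseline arrays did not overlap for 24 genes that were higher (0.176%) and 83 that were lower (0.609%). With the 3′ minus 5′ difference as a covariate 1246 genes (9.14%) were called, 380 higher (2.79%) and 866 lower (6.35%), and 990 of them were among the 4602. The median standard error of a change was 0.068 without the covariate and 0.115 with it. Every count of called genes in a list below is to be read beside these shares of all genes. They were 13.9% higher and 19.8% lower, or 2.79% and 6.35% with the covariate.

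**Figure D1:**
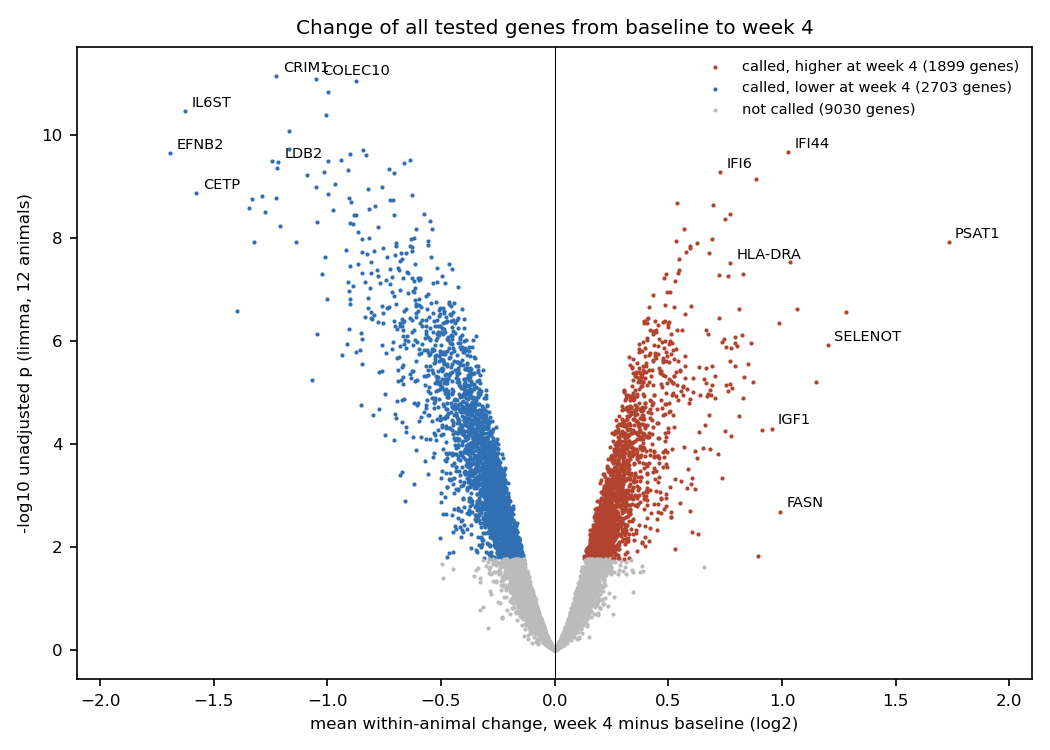
Each point is 1 of 13632 genes, with the mean within-animal change from baseline to week 4 (log2) on the horizontal axis and the negative log10 of the unadjusted limma p on the vertical axis, coloured by call and direction. The largest falls, EFNB2, IL6ST and CETP, lie beyond -1.5, and PSAT1 is the gene furthest to the right at 1.73.

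The 4 genes chosen to mark the comparison were EFNB2, IL6ST, CETP and IFI44. EFNB2 is ephrin-B2, a membrane-bound ligand of arterial and sprouting endothelium that signals through EPHB4. It read 5.91 to 6.83 at week 4 (median 6.25), against 7.29 to 8.90 at baseline (median 7.96). The week 4 and baseline arrays did not overlap, every animal was lower at week 4, and the mean change was -1.69 ± 0.15 (adjusted p = 2.55e-07), or 3.23-fold lower, where ± is here and below the standard error of the fit over 12 animals. Its other probe set gave -1.64, and the change was -1.84 with the 3′ minus 5′ covariate, -2.72 in control animal 4 and -1.92 in control animal 6.

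CETP, the plasma protein that moves cholesteryl esters from high density lipoprotein to other lipoproteins, read 7.16 to 8.98 at week 4 (median 8.00), against 8.89 to 10.15 at baseline (median 9.65). Values of the times overlapped between animals, but 12 of 12 animals were lower at week 4, with a mean change of -1.58 ± 0.15 (adjusted p = 5.85e-07), or 2.98-fold lower. The smallest fall was in an anti-miR-33 animal. The change was -1.41 with the covariate, -1.04 in control animal 4 and -2.01 in control animal 6.

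IL6ST, the gp130 subunit shared by the receptors of interleukin-6 and its relatives, read 6.17 to 7.58 at week 4 (median 6.96), against 7.92 to 9.10 at baseline (median 8.55). It was lower in 12 of 12 animals with no overlap of the times and a mean change of -1.62 ± 0.13 (adjusted p = 9.45e-08), or 3.08-fold lower. The IL6ST probe sets did not move alike, since the 6 others ran from -1.12 to 0.16, and of the 2 above the filter on dim probe sets 1 gave -1.12 and the other 0.16. The fall was also smallest in the control animals whose 3′ minus 5′ difference did not fall, at -0.39 in control animal 4 and -0.83 in control animal 6, and it was -1.02 with the covariate.

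IFI44, an interferon-induced gene, moved the other way. It read 8.48 to 10.08 at week 4 (median 9.35), against 7.49 to 9.05 at baseline (median 8.44). Every animal was higher at week 4, by 1.03 ± 0.09 (adjusted p = 2.55e-07), or 2.04-fold, although animals differed enough for the times to overlap. The change was 0.98 with the covariate, and 1.32 and 0.59 in control animals 4 and 6. The other probe set, below the filter, gave 0.04.

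**Figure D2:**
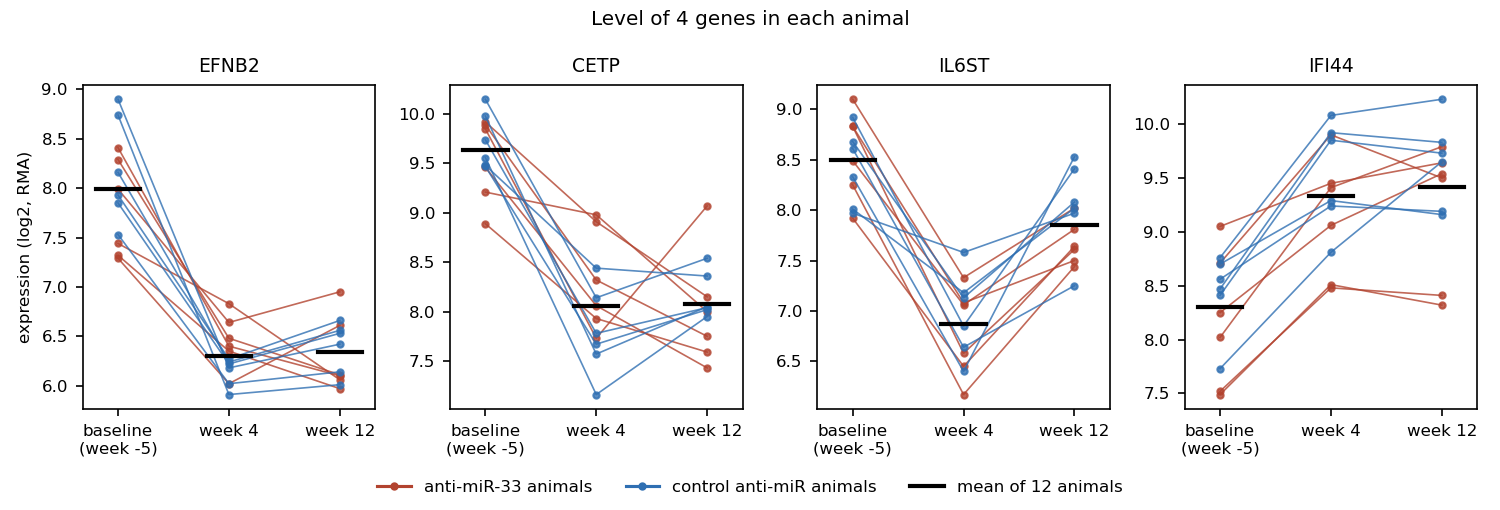
Each line joins 1 animal's log2 level at baseline, week 4 and week 12 for EFNB2, CETP, IL6ST and IFI44, with anti-miR-33 and control anti-miR animals coloured apart and black bars at the mean of 12 animals. EFNB2, CETP and IL6ST lie lower at week 4 than at baseline in 12 of 12 animals and IFI44 lies higher, and at week 12 the means are 6.34, 8.08, 7.86 and 9.42.

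Most tested markers of the sinusoidal endothelium fell. Of 11 tested markers 7 fell and 0 rose, with a median change of -0.60 beside -0.01 for all genes. The 4 not called were FCN3 (-0.22) and, above 0, CD36 (0.34), CLEC4M (0.20) and CLEC14A (0.015). The mean of the markers on an array ran from 6.08 to 6.86 at week 4 (median 6.28), against 6.51 to 7.11 at baseline (median 6.82), and it was lower at week 4 in 12 of 12 animals. FCN2, the ficolin that starts the lectin pathway of complement, read 8.58 to 9.57 at week 4 (median 9.07), against 9.61 to 11.14 at baseline (median 10.48), without overlap, and fell by 1.33 ± 0.13 (adjusted p = 6.26e-07). FCGR2B, the inhibitory Fc receptor by which sinusoidal endothelium clears immune complexes, changed by -1.14 ± 0.12 (adjusted p = 2.24e-06). CLEC4G, the sinusoidal lectin LSECtin, changed by -0.97 ± 0.10 (adjusted p = 8.26e-07) and STAB2, a scavenger receptor for hyaluronan, by -0.76 ± 0.10 (adjusted p = 2.51e-05), both in 12 of 12 animals. The other 3 called markers were STAB1 (-0.67), MRC1 (-0.60) and LYVE1 (-0.46), the first a scavenger receptor, the second the mannose receptor and the third a hyaluronan receptor. With the covariate 5 of the 11 markers were called lower and 0 higher. In control animals 4 and 6 the median change of the markers was -0.35 and -0.79. Another probe set is called alike, here and below, where it had the same sign and at least 50% of the change. The other probe sets gave -0.09 to 0.27 for FCN2.

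Most tested general endothelial genes fell with them. Of 19 tested, 13 fell and 1 rose, NRP1, a coreceptor of vascular endothelial growth factor (0.28), with a median change of -0.31. The 5 not called were EGFL7 (0.13), ROBO4 (0.05), PLVAP (0.009), TEK (-0.01) and RAMP3 (-0.04). TIE1, an endothelial receptor tyrosine kinase, read 5.47 to 7.40 at week 4 (median 5.76), against 6.54 to 7.97 at baseline (median 7.22). It was lower in 12 of 12 animals with a change of -1.27 ± 0.13 (adjusted p = 8.86e-07), the largest of the list. PECAM1, a junction protein of endothelium and blood cells, changed by -0.74 ± 0.09 (adjusted p = 6.75e-06), VWF, the von Willebrand factor, by -0.69 ± 0.11 (adjusted p = 0.000135), FLT1, a receptor of vascular endothelial growth factor, by -0.68 ± 0.09 (adjusted p = 2.51e-05), and KDR, the other main receptor of that factor, by -0.52 ± 0.09 (adjusted p = 0.000187). ENG, CDH5 and ERG, an endothelial coreceptor, a junction cadherin and a transcription factor, changed by -0.65, -0.57 and -0.53. In control animal 4, however, PECAM1 changed by 0.03 and VWF by 0.21, and the list's median there was -0.01, against -0.35 in control animal 6. With the covariate 4 of the 19 were called lower and 0 higher. The probe sets not used gave 0.09 for TIE1, -0.30 to 0.09 for PECAM1, 0.10 for VWF and -0.25 to 0.21 for FLT1.

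Among the 15 largest falls of all genes were 3 more genes known from endothelium, each lower at week 4 in every animal. LDB2, a cofactor of LIM-domain transcription factors, read 6.80 to 8.07 at week 4 (median 7.29), against 8.01 to 9.25 at baseline (median 8.43) and changed by -1.22 ± 0.11 (adjusted p = 2.55e-07). ADGRF5, an adhesion receptor of endothelium, changed by -1.22 ± 0.11 (adjusted p = 2.99e-07) without overlap of the times, and CRIM1, a membrane protein that binds bone morphogenetic proteins, by -1.22 ± 0.09 (adjusted p = 4.16e-08), also without overlap. In control animals 4 and 6 LDB2 changed by -1.18 and -1.22, ADGRF5 by -1.18 and -1.25, and CRIM1 by -1.55 and -1.35. Their values with the covariate were -1.22, -1.11 and -1.36, each still called. The second probe set of LDB2, below the filter, gave 0.07, and those of CRIM1 gave -0.60 to -0.51.

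In the ephrin and Notch list, 6 of 18 genes fell and 2 rose, with a median change of -0.04. HEY1, a transcriptional repressor induced by Notch, read 5.77 to 6.85 at week 4 (median 6.39), against 6.83 to 8.73 at baseline (median 7.68) and changed by -1.34 ± 0.13 (adjusted p = 7.89e-07), in 12 of 12 animals. EFNA1, another ephrin ligand, changed by -0.53 ± 0.08 (adjusted p = 5.23e-05). EPHB4, the receptor of ephrin-B2, was higher at week 4 in 12 of 12 animals, by 0.36 ± 0.06 (adjusted p = 0.000107), so ligand and receptor moved in opposite directions on these probe sets. The second EPHB4 probe set gave -0.19, however, and that of HEY1 gave -0.45. Further Notch genes outside the largest 4 were HES1 (-0.31), HEY2 (-0.32) and RBPJ (-0.15), which fell, and the receptor NOTCH3 (0.28), which rose. Ephrin and Notch calls numbered 1 higher and 3 lower with the covariate.

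Stellate cell and matrix genes were lower as well. Of 21 tested, 12 fell and 0 rose, with a median of -0.29. The 9 not called included DES, desmin (0.24), and DCN (0.08), the only 2 above 0, and ACTA2 (-0.08). The list's mean ran from 7.13 to 7.76 at week 4 (median 7.43), against 7.43 to 8.15 at baseline (median 7.73) and was lower at week 4 in 10 of 12 animals. RELN, a secreted protein of stellate cells, read 8.51 to 9.55 at week 4 (median 8.87), against 9.14 to 10.16 at baseline (median 9.77) and changed by -0.82 ± 0.08 (adjusted p = 8.18e-07) in 12 of 12 animals. The fibrillar collagen genes COL1A2 and COL3A1 changed by -0.74 ± 0.10 (adjusted p = 1.72e-05) and -0.69 ± 0.11 (adjusted p = 6.76e-05), the matrix protein gene SPARC by -0.65 ± 0.09 (adjusted p = 1.74e-05), and PDGFRA, a platelet-derived growth factor receptor, by -0.59 ± 0.09 (adjusted p = 5.33e-05), each lower in 11 of 12 animals. With the covariate 8 of the 21 were called lower and 0 higher. The other probe sets of these genes stood at -0.19 to 0.04 for COL1A2, -0.74 to 0.04 for COL3A1 (2 of 4 alike), -0.21 for SPARC and -0.03 to 0.14 for PDGFRA.

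Kupffer cell markers were lower or not called. Of 16, 8 fell and 0 rose, with a median of -0.17. The 8 not called were MS4A7 (-0.13), LYZ (-0.11), C1QB (-0.09), CD5L (-0.08) and, above 0, AIF1 (0.05), C1QA (0.05), TYROBP (0.11) and FCER1G (0.11). With the covariate 1 (6.25%) was called lower, beside 6.35% of all genes. SLC40A1, the iron exporter ferroportin, changed by -0.38 ± 0.07 (adjusted p = 0.000634), CD163, the haemoglobin scavenger receptor, by -0.36 ± 0.07 (adjusted p = 0.00107), HMOX1, which breaks down haem, by -0.34 ± 0.09 (adjusted p = 0.00816), and VSIG4, a complement receptor, by -0.27 ± 0.09 (adjusted p = 0.0215). The median of the Kupffer list was 0.32 in control animal 4, opposite in sign to the mean of all animals. The values of other probe sets were 0.05 for SLC40A1 and -0.39 to -0.06 for CD163 (1 of 2 alike).

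Markers of blood and other cell types were called in small numbers per list, to be read beside 13.9% higher and 19.8% lower over all genes. Lymphocyte markers gave 3 higher and 3 lower of 20, plasma cell markers 2 and 0 of 9, neutrophil markers 2 and 1 of 9, erythroid markers 1 and 0 of 7, and fat and muscle genes 0 and 0 of 5. PTPRC, the leukocyte tyrosine phosphatase CD45, had one of the largest falls at -1.40 ± 0.18 (adjusted p = 1.83e-05), but its 4 other probe sets ran from 0.01 to 0.20, it changed by 0.17 in control animal 4, and it was not called with the covariate (-0.61). IL7R, the interleukin-7 receptor of T cells, changed by -0.31 ± 0.10 (adjusted p = 0.0258), while CD4, a T helper cell coreceptor, and GZMB, a protease of cytotoxic cells, changed by 0.23 ± 0.06 (adjusted p = 0.00917) and 0.25 ± 0.06 (adjusted p = 0.00587). Plasma cell genes MZB1 and IGLL5 rose by 0.39 ± 0.08 (adjusted p = 0.000859) and 0.35 ± 0.08 (adjusted p = 0.00195). S100A9 and LCN2, proteins of neutrophil granules and cytosol, rose by 0.20 ± 0.06 (adjusted p = 0.02) and 0.26 ± 0.10 (adjusted p = 0.0403), VCAN, a matrix proteoglycan of monocytes, changed by -0.29 ± 0.07 (adjusted p = 0.00247), and AHSP, which stabilises alpha globin, rose by 0.23 ± 0.06 (adjusted p = 0.00331). The smallest p among fat and muscle genes was that of DES, also in the stellate list, at 0.24 ± 0.10 (adjusted p = 0.0598). Alternative probe sets stood at 0.01 to 0.02 for IGLL5, -0.18 to 0.13 for VCAN (1 of 4 alike) and -0.13 for DES. With the covariate the lymphocyte list had 0 higher and 0 lower, the plasma cell list 2 higher and 0 lower, the neutrophil list 1 higher and 0 lower and the erythroid list 0 higher and 0 lower.

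**Figure D3:**
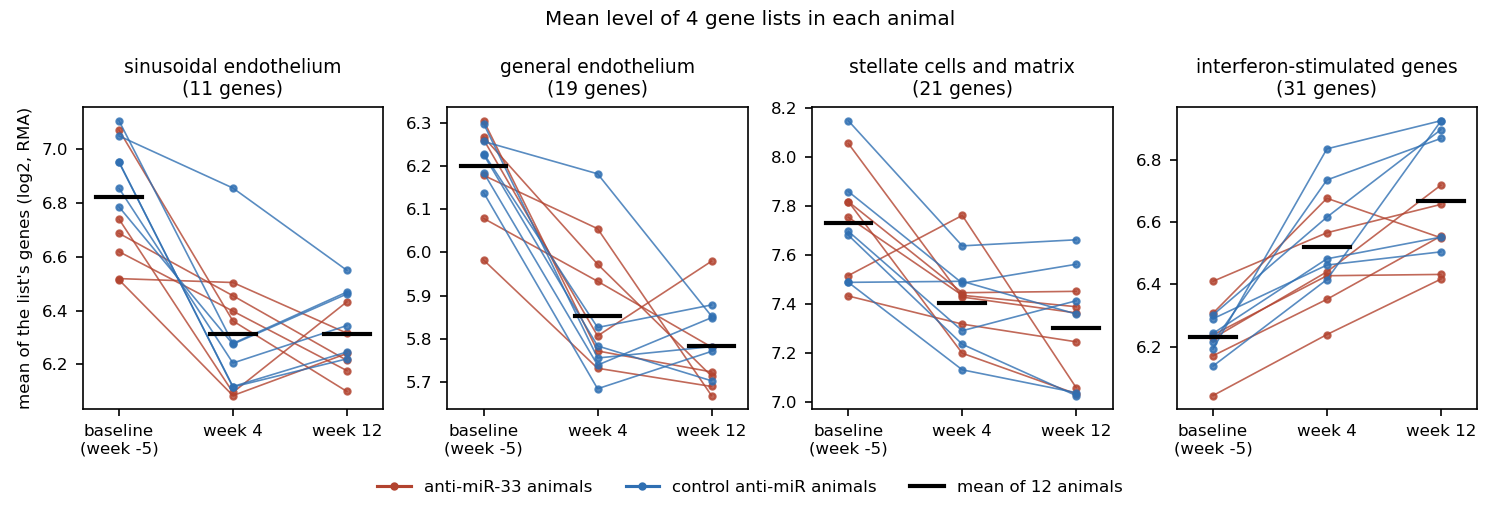
Each line joins the mean log2 level of a gene list in 1 animal at baseline, week 4 and week 12, with the arms coloured apart and black bars at the mean of 12 animals. The sinusoidal and general endothelial means are lower at week 4 than at baseline in 12 of 12 animals and the stellate mean in 10 of 12, while the interferon mean is higher in 12 of 12.

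Bile duct markers showed no shared direction, and few hepatocyte markers were called. Of 12 bile duct markers 3 rose and 3 fell. ONECUT1, a transcription factor of hepatocytes and bile duct precursors, rose by 0.77 ± 0.12 (adjusted p = 7.62e-05), ANXA4, a calcium-binding annexin, by 0.36 ± 0.10 (adjusted p = 0.0084) and SOX9, a bile duct transcription factor, by 0.30 ± 0.08 (adjusted p = 0.00493), while EPCAM, an adhesion molecule of bile duct epithelium, changed by -0.35 ± 0.07 (adjusted p = 0.000665). SOX9 was not settled, since its second probe set gave -0.64, and ANXA4 had 0.16 on its second probe set and -0.13 with the covariate. Of 23 hepatocyte markers, 6 had a change above 0, with a median of -0.04. The hepatocyte list's mean was lower at week 4 in 9 of 12 animals. Of the markers, 1 was called higher and 2 lower. These were CYP3A4, the main drug-oxidising cytochrome P450 (0.19 ± 0.06, adjusted p = 0.0265), ASS1 of the urea cycle (-0.32 ± 0.07, adjusted p = 0.00162) and PCK1, a rate-setting enzyme of gluconeogenesis (-0.33 ± 0.10, adjusted p = 0.0111). The 4 other probe sets of CYP3A4 ran from -0.20 to 0.16, and these transcripts resemble those of its CYP3A relatives. Under the covariate, the bile duct list had 0 higher and 2 lower and the hepatocyte list 0 higher and 0 lower.

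Most tested interferon-stimulated genes rose. Of 31 tested, 19 rose and 1 fell, IFI27 (-0.23), with a median of 0.26. The 11 not called included EPSTI1 (0.17), USP18 (0.17), DTX3L (0.15) and EIF2AK2 (0.05). The rest of the 11 were MX2 (0.01), XAF1 (0.008), HERC5 (0.007) and, below 0, IFIT5 (-0.006), SAMD9L (-0.05), OAS2 (-0.06) and ISG20 (-0.19). The list's mean ran from 6.24 to 6.83 at week 4 (median 6.47), against 6.04 to 6.41 at baseline (median 6.23) and was higher at week 4 in 12 of 12 animals. IFIT1, which binds viral RNA lacking a host cap, read 7.37 to 9.06 at week 4 (median 8.26), against 6.22 to 8.01 at baseline (median 7.63) and rose by 0.83 ± 0.12 (adjusted p = 3.48e-05). HERC6, an interferon-induced ligase, rose by 0.79 ± 0.12 (adjusted p = 8.79e-05), and IFI6, a small membrane protein, by 0.73 ± 0.07 (adjusted p = 3.01e-07), each in 12 of 12 animals. The ubiquitin-like modifier ISG15, the RNA sensor IFIH1, the GTPase MX1, and OASL and OAS1 of the oligoadenylate synthetase family rose by 0.69, 0.50, 0.40, 0.56 and 0.50. With the covariate 10 were called higher and 0 lower, and the median was 0.29. The median change was 0.51 in control animal 4 and 0.21 in control animal 6. The second HERC6 probe set, below the filter, gave 0.05.

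Several antigen presentation genes rose with them. Of 15 class I genes 9 rose and 0 fell (median 0.22), and of 12 class II genes 5 rose and 0 fell (median 0.10). HLA-DRA, the class II alpha chain, read 6.66 to 7.66 at week 4 (median 7.34), against 6.10 to 6.99 at baseline (median 6.49) and rose in 12 of 12 animals, by 0.77 ± 0.09 (adjusted p = 4.08e-06). HLA-DRB1 and HLA-DMA, a class II beta chain and a peptide-loading chain, rose by 0.26 ± 0.08 (adjusted p = 0.0195) and 0.27 ± 0.08 (adjusted p = 0.0185), and CTSS, the protease that trims the class II invariant chain, by 0.33 ± 0.09 (adjusted p = 0.00571). The 7 class II genes not called were HLA-DPB1 (0.10), HLA-DPA1 (0.09), CIITA (0.09), HLA-DOA (0.07), HLA-DQB1 (0.03), CD74 (-0.02) and HLA-DQA1 (-0.04). In class I, PSMB8 of the immunoproteasome rose by 0.54 ± 0.08 (adjusted p = 5.28e-05), HLA-F by 0.42 ± 0.05 (adjusted p = 1.64e-05), the peptide transporter TAP1 by 0.33 ± 0.07 (adjusted p = 0.000919) and the light chain B2M by 0.80 ± 0.11 (adjusted p = 3.82e-05). B2M had 0.13 and -0.01 on its other probe sets. The HLA genes belong to a family of close copies, so human probes may read several monkey genes at once. With the covariate 4 class II and 3 class I genes were called higher and none lower. The remaining probe sets held 0.07 to 0.48 for HLA-F (1 of 2 alike) and -0.37 to 0.14 for CTSS.

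Around gp130, 6 of 17 genes fell and 2 rose (median -0.14). LIFR, the receptor of leukaemia inhibitory factor that pairs with gp130, changed by -0.47 ± 0.10 (adjusted p = 0.00162), and IL11RA, the interleukin-11 receptor, by -0.34 ± 0.09 (adjusted p = 0.00761). SOCS2, a feedback inhibitor best known downstream of growth hormone, changed by -0.41 ± 0.12 (adjusted p = 0.0136). IL6R, the interleukin-6 binding chain, and the kinase TYK2 changed by -0.27 and -0.26, while the kinase JAK2 and the cytokine LIF rose by 0.32 and 0.23. Without control animal 1, whose diet label stood apart, 5 fell and 0 rose. The receptors and SOCS2 had other probe sets at -0.82 to 0.29 for LIFR (1 of 4 alike), 0.12 for IL11RA and -0.07 to 0.99 for SOCS2. With the covariate 2 were called lower and 0 higher.

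Genes of plasma proteins moved in both directions. Of 14 acute phase genes 2 rose and 1 fell. FGG, the fibrinogen gamma chain, changed by 0.23 ± 0.08 (adjusted p = 0.0302), LBP, which binds bacterial lipopolysaccharide, by 0.30 ± 0.10 (adjusted p = 0.0267), and A2M, a protease trap, by -0.30 ± 0.07 (adjusted p = 0.00321). FGG and LBP stood at -0.03 and -0.11 with the covariate. Of 34 complement and clotting genes 11 rose and 3 fell. MBL2, the mannose-binding lectin, rose by 0.41 ± 0.08 (adjusted p = 0.000818), MASP2, its protease, by 0.40 ± 0.06 (adjusted p = 6.45e-05) and C8G, the gamma chain of complement component 8, by 0.40 ± 0.05 (adjusted p = 2.41e-05), while C7, a component of the membrane attack complex, changed by -0.42 ± 0.09 (adjusted p = 0.00132). C8G had 0.45 with the covariate and 0.48 and 0.54 in control animals 4 and 6. Other probes gave 0.32 for A2M, 0.03 to 0.16 for MASP2 and 0.03 for C7. With the covariate the complement and clotting list had 2 higher and 4 lower, so that falls then outnumbered rises, and its median was -0.04, against 0.04 without it. The acute phase list had 0 higher and 1 lower.

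Of 23 growth factor receptor genes 11 fell and 3 rose (median -0.20). IGF1R, the receptor of insulin-like growth factor 1, read 6.31 to 7.11 at week 4 (median 6.78), against 7.23 to 8.26 at baseline (median 7.80), without overlap, and changed by -1.05 ± 0.10 (adjusted p = 4.81e-07). ERBB2, a partner of other epidermal growth factor family receptors, rose in 12 of 12 animals by 0.43 ± 0.07 (adjusted p = 9.89e-05). Of 25 genes of TGF-beta, bone morphogenetic protein and Hippo signalling 10 fell and 4 rose. TGFBR3, the TGF-beta coreceptor betaglycan, read 6.77 to 8.04 at week 4 (median 7.46), against 7.91 to 9.18 at baseline (median 8.67) and changed by -1.17 ± 0.09 (adjusted p = 1.69e-07) in 12 of 12 animals. TEAD1, the DNA-binding partner of YAP, changed by -0.60 ± 0.07 (adjusted p = 6.33e-06), SMAD6, an inhibitor of bone morphogenetic protein signals, by -0.49 ± 0.10 (adjusted p = 0.00121), and BMP2, a ligand made by liver endothelium, by -0.45 ± 0.10 (adjusted p = 0.00212). The other probe sets of these genes had -1.01 to 0.22 for IGF1R (1 of 4 alike), 0.16 to 0.22 for ERBB2 (1 of 2 alike), -0.48 for TGFBR3, -0.20 to -0.12 for TEAD1 and 0.07 to 0.19 for SMAD6. Under the covariate, the receptor list had 2 higher and 3 lower (median -0.10), and the TGF-beta and Hippo list 0 higher and 6 lower.

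The list of pericentral and Wnt genes held 4 that rose and 4 that fell of 18. RSPO3, a secreted enhancer of Wnt signals made around the central vein, read 6.02 to 7.62 at week 4 (median 6.50), against 6.77 to 8.19 at baseline (median 7.24) and changed by -0.75 ± 0.08 (adjusted p = 2.58e-06) in 12 of 12 animals, with -0.78 with the covariate. KIT, the stem cell factor receptor, changed by -1.07 ± 0.17 (adjusted p = 0.000134) and was lower in 11 of 12 animals. SLC1A2, a glutamate transporter of pericentral hepatocytes, changed by -0.81 ± 0.11 (adjusted p = 2.24e-05) and TCF7L2, a transcription factor of the Wnt pathway, by -0.42 ± 0.07 (adjusted p = 0.000141). Some targets of Wnt signalling went the other way: AXIN2 (0.39), NKD1 (0.25) and ZNRF3 (0.24), 3 feedback inhibitors, were higher, as was the enzyme gene OAT (0.42). The probe sets left aside gave 0.05 to 0.61 for SLC1A2 and -0.55 to 0.26 for TCF7L2 (2 of 6 alike). Pericentral and Wnt calls numbered 1 higher and 3 lower with the covariate.

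Of 22 genes of fatty acid and triglyceride synthesis 10 rose and 3 fell (median 0.15). FASN, fatty acid synthase, had the largest change of the list at 0.99 ± 0.28 (adjusted p = 0.01), but only 8 of 12 animals were higher, with levels of 8.24 to 11.23 at week 4 (median 10.19), against 6.91 to 11.24 at baseline (median 8.80), and its other probe set gave 0.10. ELOVL5, which lengthens polyunsaturated fatty acids, rose by 0.63 ± 0.12 (adjusted p = 0.000688), THRSP, a lipogenic nuclear protein, by 0.63 ± 0.20 (adjusted p = 0.0216) and SCD, the stearoyl-CoA desaturase, by 0.60 ± 0.17 (adjusted p = 0.00987). SREBF1, the transcription factor that drives lipogenic genes, rose by 0.57, and DGAT2, which makes triglyceride, by 0.54. The 3 that fell were LPIN2 (-0.44), GPAM (-0.41) and ACLY (-0.24). The 9 not called ran from -0.17 (LPIN1) to 0.15 (SLC25A1), with ACACA at -0.06, ACSS2 at 0.01 and PKLR at 0.04. With the covariate 2 of the 22 genes were called higher and 0 lower. FASN, ELOVL5, THRSP and SCD then stood at 0.02, 0.08, -0.04 and 0.33. Other probe sets lay at -0.05 to 0.26 for ELOVL5 and 0.28 to 1.06 for SCD (2 of 3 alike).

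Fatty acid oxidation had more falls than rises. Of 31 genes 13 fell and 3 rose (median -0.15), and 6 were called lower and 1 higher with the covariate. ETFDH, which passes electrons from fatty acid oxidation to the respiratory chain, read 7.72 to 8.87 at week 4 (median 8.15), against 8.58 to 9.48 at baseline (median 9.12) and changed by -0.90 ± 0.09 (adjusted p = 1.25e-06) in 12 of 12 animals, with a second probe set at -0.70. CPT2, the inner carnitine palmitoyltransferase, changed by -0.62 ± 0.09 (adjusted p = 3.05e-05) and its second probe set by -0.62. HADHA, the trifunctional protein's alpha subunit, changed by -0.61 ± 0.10 (adjusted p = 0.000134) and PPARGC1A, a coactivator of oxidative genes, by -0.66 ± 0.18 (adjusted p = 0.00703). CPT1A, the outer and rate-limiting carnitine palmitoyltransferase, changed by -0.37 ± 0.13 (adjusted p = 0.0347), but only 7 of 12 animals were lower. PDK4, which blocks entry of pyruvate into the citric acid cycle, changed by -0.34 ± 0.12 (adjusted p = 0.0395). Probe sets other than these stood at -0.71 to -0.20 for HADHA (1 of 2 alike), 0.39 for PPARGC1A, -0.20 to 0.00 for CPT1A (1 of 3 alike) and -0.12 to 0.68 for PDK4.

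Of 19 cholesterol synthesis genes 1 rose and 2 fell. MVD, an early step of the pathway, changed by 0.28 ± 0.08 (adjusted p = 0.0121), and HSD17B7 and NSDHL, both later steps, by -0.34 ± 0.09 (adjusted p = 0.00801) and -0.19 ± 0.07 (adjusted p = 0.0379). In lipoprotein uptake and remodelling 2 of 18 rose and 5 fell, CETP among them. NR1H3, the sterol-sensing liver X receptor alpha, changed by -0.50 ± 0.10 (adjusted p = 0.00058), and its target MYLIP, which degrades lipoprotein receptors, by -0.35 ± 0.08 (adjusted p = 0.00274), while the remnant receptor LRP1 rose by 0.36 ± 0.06 (adjusted p = 0.000216) in 12 of 12 animals. PLTP, the phospholipid transfer protein and a relative of CETP, changed by -0.20. Of 14 apolipoprotein genes 2 rose and 2 fell. APOE, the ligand of remnant receptors, rose by 0.29 ± 0.08 (adjusted p = 0.00893) and APOM, a carrier of sphingosine-1-phosphate, by 0.18 ± 0.05 (adjusted p = 0.0109). APOA5 and APOC2, both activators of triglyceride hydrolysis, changed by -0.52 ± 0.11 (adjusted p = 0.000887) and -0.23 ± 0.08 (adjusted p = 0.0252). The other probe sets gave -0.78 to 0.16 for MYLIP (3 of 5 alike), -0.06 to 0.27 for LRP1 (1 of 3 alike), -0.07 for APOA5 and 0.07 for APOC2. In the fit with the covariate the cholesterol list had 0 higher and 2 lower, the lipoprotein list 0 higher and 1 lower and the apolipoprotein list 0 higher and 0 lower.

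Genes known as miR-33 targets gave 3 higher and 8 lower of 21, with a median of 0.02 in the pooled animals, of which 6 received anti-miR-33. FOXO1, a transcription factor that drives gluconeogenic genes, changed by -0.69 ± 0.10 (adjusted p = 2.94e-05). ABCB11, the bile salt export pump, rose by 0.80 ± 0.12 (adjusted p = 4.47e-05) in 12 of 12 animals and by 0.30 with the covariate, where it was not called. Other bile acid transporters that rose were ABCC2 (0.45 ± 0.09, adjusted p = 0.000522) and ABCC3 (0.43 ± 0.09, adjusted p = 0.000747), with FGFR4, the receptor by which intestinal FGF19 signals to liver (0.41 ± 0.08, adjusted p = 0.000705). In the bile acid list 5 of 16 rose and 3 fell. In the lipid droplet list 3 of 19 rose and 3 fell, 15.8% each way, beside 13.9% and 19.8% of all genes. G0S2, an inhibitor of triglyceride lipase, rose by 0.75 ± 0.15 (adjusted p = 0.00066) and AADAC, a microsomal lipase, by 0.37 ± 0.07 (adjusted p = 0.000685), while PLIN5, a droplet coat protein, and MGLL, the monoglyceride lipase, changed by -0.31 ± 0.07 (adjusted p = 0.00265) and -0.21 ± 0.06 (adjusted p = 0.0122). Other probe sets read -0.54 to 0.27 for FOXO1 (1 of 2 alike), 0.03 for ABCB11, -0.11 to 0.35 for ABCC3 (1 of 4 alike), -0.04 to 0.41 for FGFR4 (1 of 3 alike) and -0.40 to 0.15 for PLIN5 (2 of 5 alike). With the covariate the miR-33 target list had 1 higher and 0 lower, with a median of -0.05, so none of its 8 falls was called, and the bile acid and lipid droplet lists each had 1 higher and 0 lower.

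In glucose metabolism 4 of 27 rose and 9 fell (median 0.01). SLC37A4, the glucose-6-phosphate transporter, rose by 0.68 ± 0.12 (adjusted p = 0.00018), but by 0.01 with the covariate and by -0.15 and -0.05 in control animals 4 and 6. TXNIP, a glucose-induced inhibitor of thioredoxin, changed by -0.71 ± 0.09 (adjusted p = 1.15e-05) and PFKFB3, which makes an activator of glycolysis, by -0.55 ± 0.09 (adjusted p = 8.87e-05). The growth hormone list had 3 that rose and 3 that fell of 10. IGF1 read 10.96 to 11.80 at week 4 (median 11.37), against 8.73 to 11.36 at baseline (median 10.54) and rose by 0.95 ± 0.19 (adjusted p = 0.000619), in 11 of 12 animals. IGFALS, which holds IGF1 in a ternary complex in plasma, rose in 12 of 12 animals by 0.49 ± 0.06 (adjusted p = 5.60e-06) and kept 0.56 with the covariate, whereas IGF1 had 0.37 and was not called. IGFBP2 and IGFBP5, binding proteins of IGF1, changed by 0.74 ± 0.18 (adjusted p = 0.00323) and -0.57 ± 0.11 (adjusted p = 0.000356). The IGF1 probe sets not used ran from -0.01 to 0.39, those of IGFBP5 from -0.20 to 0.10, those of TXNIP from -0.49 to 0.32, and that of SLC37A4 gave 0.11. Under the covariate, the glucose list had 0 higher and 5 lower and the growth hormone list 1 higher and 1 lower.

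Amino acid metabolism gave 8 higher and 2 lower of 23. PSAT1, an aminotransferase of serine synthesis, had the largest rise of all genes and read 8.47 to 10.51 at week 4 (median 9.12), against 6.03 to 9.44 at baseline (median 7.50). It was higher in 12 of 12 animals, by 1.73 ± 0.19 (adjusted p = 2.24e-06), or 3.33-fold, but by 0.04 in control animal 4 and 0.72 in control animal 6, and by 0.67 with the covariate, where it was still called. Its second probe set gave 0.21. GATM, the first enzyme of creatine synthesis, rose by 0.91 ± 0.18 (adjusted p = 0.000653), CTH, which makes cysteine from cystathionine, by 0.81 ± 0.15 (adjusted p = 0.000406) and TDO2, which opens the tryptophan ring, by 0.59 ± 0.14 (adjusted p = 0.00244), and none of these was called with the covariate (0.22, 0.01 and 0.06). Other probe sets ran at -0.05 to 0.12 for GATM, 0.30 for CTH and 0.05 for TDO2. Amino acid calls numbered 3 higher and 0 lower with the covariate.

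Drug metabolism genes gave 8 higher and 2 lower of 25. CYP1A1, a cytochrome P450 induced by aryl hydrocarbons, rose by 0.35 ± 0.12 (adjusted p = 0.0261) and GSTM1, a glutathione transferase, by 0.35 ± 0.06 (adjusted p = 0.000292). CYP3A5 and CYP4F2, an oxidase of drugs and one of vitamin K and fatty acids, changed by -0.37 ± 0.09 (adjusted p = 0.00395) and -0.33 ± 0.06 (adjusted p = 0.000342), and the other probe sets of CYP3A5 lay between -0.17 and -0.11. Among nuclear receptors and liver transcription factors 1 of 22 rose and 4 fell, or 4.5% and 18.2%, beside 13.9% and 19.8% of all genes. NR3C1, the glucocorticoid receptor, read 8.20 to 8.75 at week 4 (median 8.47), against 8.80 to 9.34 at baseline (median 9.06), without overlap, and changed by -0.63 ± 0.06 (adjusted p = 5.99e-07). NR2F1, an orphan receptor, changed by -0.53 ± 0.08 (adjusted p = 7.93e-05) and ESR1, the estrogen receptor alpha, by -0.40 ± 0.07 (adjusted p = 0.000129). NR3C1 and ESR1 were not settled by their other probe sets, which gave -0.21 to 0.25 for NR3C1 and 0.04 to 0.34 for ESR1. In the fit with the covariate the drug metabolism list had 1 higher and 0 lower and the nuclear receptor list 0 higher and 2 lower.

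Genes of protein synthesis and folding were lower by small amounts in many members. Of 24 ribosomal protein genes 18 fell and 0 rose (median -0.24), and the list's mean was lower at week 4 in 12 of 12 animals, at 11.60 to 11.91 at week 4 (median 11.68), against 11.83 to 12.10 at baseline (median 11.93). RPL18 and RPS14, proteins of the large and the small ribosomal subunit, changed by -0.37 ± 0.06 (adjusted p = 9.56e-05) and -0.34 ± 0.06 (adjusted p = 0.000344), RPL6 by -0.35 ± 0.07 (adjusted p = 0.00052) and RPL27A by -0.33 ± 0.08 (adjusted p = 0.0038). Ribosomal protein genes have many processed copies in primate genomes, which the probes may also read. Of 19 translation factors 12 fell and 2 rose. EIF5B, which joins the ribosomal subunits, changed by -0.56 ± 0.07 (adjusted p = 1.76e-05), EIF2S2, a subunit of the factor that brings the initiator tRNA, by -0.56 ± 0.07 (adjusted p = 1.06e-05), EIF3D, a subunit of eIF3, by -0.47 ± 0.06 (adjusted p = 1.53e-05) and EIF5 by -0.46 ± 0.06 (adjusted p = 1.64e-05). With the covariate 13 ribosomal and 8 translation genes were called lower and none higher. The other probe sets had -0.24 to 0.26 for RPL18 (1 of 2 alike), 0.01 to 0.23 for RPS14, -0.96 to 0.00 for EIF5B (3 of 5 alike), 0.03 for EIF2S2 and -0.23 to 0.22 for EIF5.

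Of 15 heat shock genes 7 fell and 1 rose (median -0.17). HSP90AA1, the inducible cytosolic HSP90, read 9.25 to 11.20 at week 4 (median 10.07), against 10.56 to 11.59 at baseline (median 11.09) and changed by -0.91 ± 0.11 (adjusted p = 9.81e-06). HSP90AB1, its constitutive partner, changed by -0.73 ± 0.09 (adjusted p = 7.43e-06), HSPH1, a nucleotide exchange factor for HSP70, by -0.45 ± 0.16 (adjusted p = 0.0401) and BAG3, a cochaperone, by -0.37 ± 0.12 (adjusted p = 0.0215). In the unfolded protein list 9 of 25 fell and 2 rose. HSPA5, the main chaperone of the endoplasmic reticulum, changed by -0.49 ± 0.14 (adjusted p = 0.011), HSP90B1 by -0.48 ± 0.11 (adjusted p = 0.00174), MANF, a secreted stress protein, by -0.47 ± 0.11 (adjusted p = 0.00328) and DNAJB11, a cochaperone of HSPA5, by -0.45 ± 0.10 (adjusted p = 0.00149). Proteasome and ubiquitin genes gave 10 lower and 2 higher of 25, among them the regulatory subunits PSMD4 (-0.40 ± 0.07, adjusted p = 0.000214), PSMC2 (-0.38 ± 0.07, adjusted p = 0.000302), PSMD1 (-0.33 ± 0.06, adjusted p = 0.000187) and PSMC4 (0.35 ± 0.07, adjusted p = 0.000446). Oxidative phosphorylation gave 14 lower and 1 higher of 31 (median -0.14). ATP5F1A, the alpha subunit of ATP synthase, changed by -0.43 ± 0.06 (adjusted p = 2.36e-05) in 12 of 12 animals, COX4I1 of cytochrome oxidase by -0.29 ± 0.06 (adjusted p = 0.000985), and NDUFA9 and NDUFV2 of complex I by -0.28 ± 0.06 (adjusted p = 0.00109) and 0.28 ± 0.08 (adjusted p = 0.0134). Other probe sets of these genes gave -0.96 to -0.17 for HSP90AA1 (2 of 3 alike), -0.65 to 0.41 for HSP90AB1 (1 of 2 alike), -0.36 to 0.02 for HSPH1 (1 of 2 alike), -0.03 for HSPA5, -0.45 to 0.14 for PSMD4 (2 of 3 alike), -0.08 to -0.06 for PSMC2, 0.10 for ATP5F1A and -0.36 to 0.12 for COX4I1 (1 of 3 alike). Under the covariate, the heat shock list had 0 higher and 6 lower, the unfolded protein list 1 higher and 5 lower, the proteasome list 0 higher and 7 lower and the oxidative phosphorylation list 0 higher and 6 lower.

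Of 27 immediate early genes 8 fell and 2 rose (median -0.23). KLF6, a transcription factor induced by injury, changed by -0.93 ± 0.14 (adjusted p = 6.11e-05), KLF2, induced in endothelium by flow, by -0.77 ± 0.09 (adjusted p = 7.32e-06), JUN by -0.48 ± 0.13 (adjusted p = 0.00612) and FOSL2, both parts of AP-1, by -0.39 ± 0.12 (adjusted p = 0.0183). Glucocorticoid targets gave 4 lower and 1 higher of 17, with 23.5% lower beside 19.8% of all genes: TSC22D3, the leucine zipper protein GILZ, changed by -0.68 ± 0.10 (adjusted p = 6.66e-05), KLF9 by -0.44 ± 0.10 (adjusted p = 0.00193) and ERRFI1, an inhibitor of epidermal growth factor receptors, by 0.53 ± 0.19 (adjusted p = 0.0359). Hypoxia genes gave 6 lower and 2 higher of 18, with HIF1A, the oxygen-regulated transcription factor, at -0.49 ± 0.06 (adjusted p = 1.95e-05), the lactate dehydrogenase LDHA at -0.56 ± 0.10 (adjusted p = 0.000323) and ANKRD37 at -0.48 ± 0.09 (adjusted p = 0.000413). Clock genes gave 3 higher and 1 lower of 18, with DBP (0.34 ± 0.09, adjusted p = 0.0078), BHLHE40 (0.49 ± 0.13, adjusted p = 0.00819) and CIART (0.25 ± 0.06, adjusted p = 0.00368) higher and the clock repressor CRY1 (-0.42 ± 0.07, adjusted p = 0.000203) lower. Other probe sets were at -1.14 to 0.04 for KLF6 (2 of 4 alike), -0.03 for KLF2, -0.32 to 0.27 for FOSL2 (1 of 4 alike), 0.02 to 0.19 for TSC22D3, 0.07 to 0.24 for KLF9, 0.05 for ANKRD37, -0.06 for DBP and 0.22 for BHLHE40. The hour of biopsy was not given in the labels. Calls with the covariate were fewer: the immediate early list had 0 higher and 3 lower, the glucocorticoid list 0 higher and 2 lower, the hypoxia list 0 higher and 6 lower and the clock list 0 higher and 1 lower.

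Cell cycle genes gave 3 higher and 1 lower of 23: RRM2 and RRM1, subunits of ribonucleotide reductase, changed by 0.41 ± 0.14 (adjusted p = 0.0269) and -0.65 ± 0.09 (adjusted p = 3.62e-05), the mitotic cyclin CCNB2 by 0.22 ± 0.08 (adjusted p = 0.0333) and the transcription factor E2F1 by 0.20 ± 0.06 (adjusted p = 0.0167). Splicing and nuclear RNA genes gave 3 higher and 5 lower of 23, with HNRNPH1 (0.48 ± 0.07, adjusted p = 5.15e-05), SRSF7 (0.44 ± 0.09, adjusted p = 0.00128) and HNRNPC (0.30 ± 0.06, adjusted p = 0.000478) higher and SRSF3 (-0.44 ± 0.06, adjusted p = 3.35e-05) lower. Selenoproteins gave 3 higher and 6 lower of 17. GPX3, the plasma glutathione peroxidase, read 7.43 to 8.89 at week 4 (median 8.19), against 8.73 to 9.89 at baseline (median 8.89) and changed by -0.79 ± 0.09 (adjusted p = 2.92e-06) in 12 of 12 animals, SELENOW by -0.30 ± 0.06 (adjusted p = 0.000904) and TXNRD1, thioredoxin reductase, by -0.29 ± 0.06 (adjusted p = 0.00117), while SELENOT of the endoplasmic reticulum rose. The RNA-binding and cell cycle genes had other probe sets at -0.10 for RRM2, 0.25 for RRM1, -0.01 to 0.05 for CCNB2, -0.24 to 0.65 for HNRNPH1 (1 of 3 alike), -0.35 to 0.32 for SRSF7 (1 of 3 alike), -0.07 to 0.37 for HNRNPC (3 of 6 alike), -0.28 to 0.05 for SRSF3 (1 of 5 alike) and 0.02 for TXNRD1. In the fit with the covariate the cell cycle list had 3 higher and 0 lower, the splicing list 0 higher and 2 lower and the selenoprotein list 0 higher and 2 lower.

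**Figure D4:**
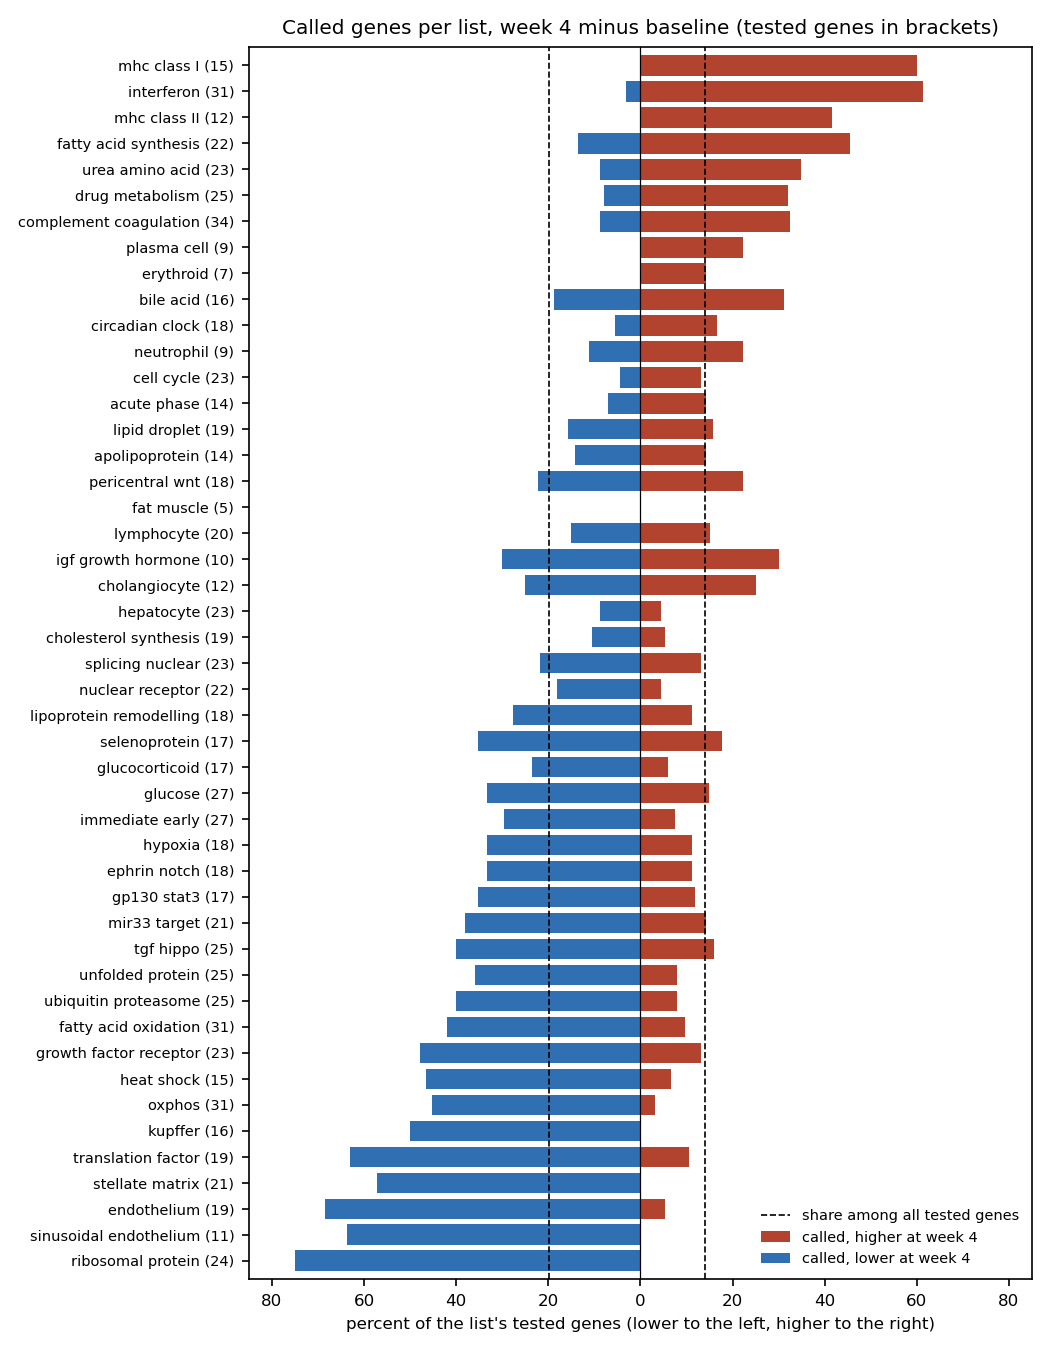
Bars give the percent of each list's tested genes called higher (right) and lower (left) at week 4, with the number tested in brackets and dashed lines at the 13.9% and 19.8% found among all genes. Interferon and class I genes stand furthest to the right, followed by fatty acid synthesis and class II genes, and ribosomal, endothelial, translation and stellate genes stand furthest to the left.

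The 15 largest rises and 15 largest falls differed in how evenly they were spread over animals and probe sets. The rises, after PSAT1, were CMAHP, SELENOT, ADH4, YIPF5, RAB9A, IFI44, RNF14, IGF1, GATM, RGCC, SLC45A3, HLMR1, TTPA and UGT1A6. CMAHP is the human pseudogene of the hydroxylase that makes N-glycolylneuraminic acid, an enzyme that Old World monkeys retain, and it rose by 1.28 ± 0.17 (adjusted p = 1.91e-05). SELENOT rose by 1.20 ± 0.18 (adjusted p = 4.71e-05), ADH4, an alcohol dehydrogenase that also oxidises retinol, by 1.15 ± 0.19 (adjusted p = 0.000139), and YIPF5, a protein of transport between endoplasmic reticulum and Golgi, by 1.07 ± 0.14 (adjusted p = 1.75e-05). RAB9A, a GTPase of late endosomes, was the one rise without overlap of the times, at 8.74 to 9.68 at week 4 (median 9.01), against 7.14 to 8.69 at baseline (median 8.04), a change of 1.03 ± 0.12 (adjusted p = 4.02e-06). RNF14, a RING-type ubiquitin ligase, rose by 0.99 ± 0.13 (adjusted p = 2.51e-05), TTPA, the vitamin E transfer protein, by 0.85 ± 0.13 (adjusted p = 8.29e-05), the solute carrier SLC45A3 by 0.89 ± 0.08 (adjusted p = 3.69e-07), HLMR1 by 0.87 ± 0.14 (adjusted p = 0.000141), RGCC, a regulator of the cell cycle, by 0.89 ± 0.33 (adjusted p = 0.0449), and UGT1A6, a glucuronosyltransferase whose 3′ exons are shared with its UGT1A relatives, by 0.83 ± 0.14 (adjusted p = 0.000121).

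Of these 15 rises, 15 were smaller with the covariate, 11 were under 50% of their size, and 4 were still called. In control animal 4, 10 of 15 had under 50% of the mean change or the opposite sign, and likewise 10 of 15 in control animal 6. SELENOT, for example, changed by -0.15 and 0.39 in these animals, YIPF5 by 0.02 and 0.52 and IGF1 by -0.31 and 0.62. The 4 still called were IFI44 (0.98), PSAT1 (0.67), SLC45A3 (0.66) and RAB9A (0.39). Another probe set existed for 12 of the 15 genes, and in 1, HLMR1, it had the same sign and at least 50% of the change. The others had -0.01 to 0.34 for CMAHP, 0.15 for SELENOT, 0.11 to 0.30 for ADH4, -0.44 to -0.12 for YIPF5, -0.06 to -0.02 for RNF14, 0.04 to 0.07 for RGCC and 0.23 for SLC45A3.

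Of the 15 largest falls, 14 were still called with the covariate and 2 were under 50% of their size. In control animal 4, 7 of 15 had under 50% of the mean change or the opposite sign, and 5 of 15 in control animal 6. The 7 falls that kept over 50% of the mean change in both animals were EFNB2, CETP, FCN2, LDB2, ADGRF5, CRIM1 and INMT. INMT, a methyltransferase of indoleamines, changed by -1.32 ± 0.14 (adjusted p = 2.24e-06), and by -1.15 and -1.30 in the 2 animals. Among the other 8 were IL6ST, PTPRC, HEY1 and TIE1, described above. The rest of the 8 were USP33, a deubiquitinase, at -1.29 ± 0.12 (adjusted p = 5.99e-07), CCAR1, a transcriptional coactivator, at -1.24 ± 0.11 (adjusted p = 2.55e-07), RSF1, a chromatin remodelling subunit, at -1.23 ± 0.12 (adjusted p = 6.16e-07) and SPEN, a transcriptional repressor, at -1.21 ± 0.13 (adjusted p = 1.36e-06). SPEN, for one, changed by -0.02 and -0.59 in the 2 animals. Their other probe sets gave -0.18 to -0.04 for USP33, -0.13 to -0.05 for CCAR1, -0.28 to 0.13 for RSF1 and 0.04 to 0.45 for SPEN. Over the 15 falls 13 genes had another probe set, and in 3, EFNB2, IL6ST and ADGRF5, at least 1 had the same sign and 50% or more of the change.

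**Figure D5:**
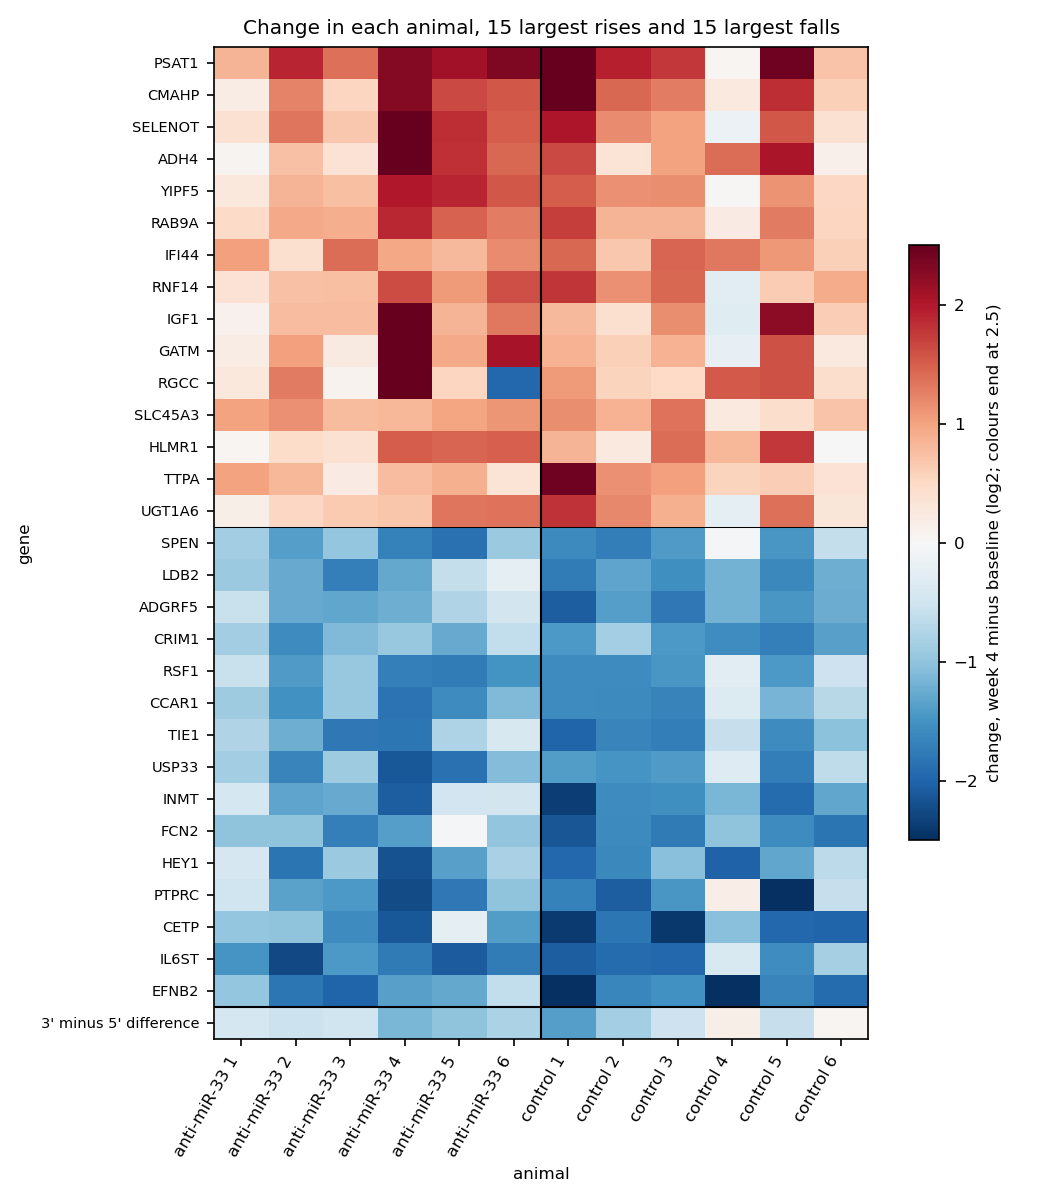
Colour gives the log2 change from baseline to week 4 in each of 12 animals for the 15 largest rises (top) and 15 largest falls (below), with the change of the 3′ minus 5′ difference in the bottom row and anti-miR-33 animals left of control animals. Control animals 4 and 6, where the bottom row is not below 0, are pale for SELENOT, YIPF5 and SPEN and keep their colour for EFNB2, FCN2 and CRIM1.

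The pooling of the arms was examined by the difference in change between them. In a fit with a change per arm 2164 genes (15.9%) were called in the 6 anti-miR-33 animals and 2092 (15.3%) in the 6 control animals, and the difference between arms was called for 0 genes (0%) by limma with Benjamini-Hochberg adjustment. An unadjusted p under 0.05 was found for 453 genes (3.32%), below the share of 0.05 that this threshold passes where no gene differs. The smallest adjusted p of the difference was that of KIT, 0.0724: KIT changed by -0.42 in anti-miR-33 animals and -1.71 in control animals, a difference of 1.28 ± 0.21. EFNB2 changed by -1.34 in anti-miR-33 animals and -2.04 in control animals, CETP by -1.22 and -1.94, IL6ST by -1.79 and -1.46, and IFI44 by 0.96 and 1.09, in that order of arms. For these 4 genes the adjusted p of the difference was 0.999. The sinusoidal list had a median of -0.51 in anti-miR-33 animals and -0.65 in control animals, and the interferon list 0.20 and 0.34. The difference between arms was not tested for any list.

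At week 12, after the change of diet, some of these levels lay near week 4 and others near baseline. Because both changes share the baseline arrays, only levels are set side by side. In the order baseline, week 4 and week 12, EFNB2 averaged 7.99, 6.30 and 6.34, CETP 9.63, 8.06 and 8.08, and FCN2 10.44, 9.11 and 8.97. IL6ST averaged 8.49, 6.87 and 7.86, and NR3C1 9.08, 8.46 and 8.85. HLA-DRA averaged 6.46, 7.24 and 7.88 and SCD 9.11, 9.71 and 11.33, with the highest mean at week 12, whereas IGFALS averaged 7.78, 8.27 and 7.53 and EPHB4 6.58, 6.94 and 6.53. The array mean of the ribosomal list had medians of 11.93, 11.68 and 11.88, and that of the sinusoidal list 6.82, 6.28 and 6.28. The 3′ minus 5′ difference was 1.83 ± 0.16 at week 12 (SD, n = 12), below both earlier means.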

How the data were processed

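Total RNA was extracted with Trizol and labelled with an Enzo kit, per the labels' protocols. The authors deposited log2 values of 54675 probe sets, credited to RMA in the submitters' processing notes. The sources used here give neither the RMA version nor the number of runs. Of the probe sets, 41097 had 1 gene in the platform annotation, 1801 several and 11777 none, and the last 2 kinds were left out. Each gene was read from its probe set of highest mean over the 24 arrays, and probe sets with a mean under the median of all (4.46) were dropped, which left 13632 of 19775 genes. Changes were tested with limma 3.58.1 (R 4.3.3), with the animal as a block, two-sided, with Benjamini-Hochberg adjustment over all genes and a threshold of 0.05, and every adjusted p comes from this test. The number of arrays limits the precision.

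The pairing rests on the animal named in the labels, and the arm of a baseline array on the same animal's later labels. Deviations from the group means correlated at 0.0914 to 0.438 within animals, against a median of -0.0305 between animals. Animals were numbered within an arm by their week 4 labels. Nothing in the labels gives replicate extractions, so each array stands for 1 biopsy. Named genes were the 15 called genes of largest change per direction that moved alike in at least 11 of 12 animals, the 4 marker genes, and up to 4 called members of each of 47 lists with the largest change, or the member of smallest p where none was called. Other list members are named, with their change only, after their values were seen. The other probe sets of a named gene are given where any moved the other way or by under 50% as much. The members and lists were chosen with earlier results of these data known.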

Additional observations from a re-analysis of the deposited data

Results flagged for a closer look

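Within-animal changes of the named genes and of the 3′ minus 5′ difference were searched for 1 animal far from the other 5 of its arm. Of 380 pairs of a measure and an arm 19 (5%) had such an animal, which is about the share that chance gives. In anti-miR-33 animal 4 these were ABCC3 (1.14), DBP (-0.32), FGFR4 (-0.34), FGG (1.00) and FOSL2 (1.06), and in anti-miR-33 animal 2 APOM (0.03). In control animal 1, whose week 4 diet label differed and whose 3′ minus 5′ difference fell most, they were APOE (0.67), EIF2S2 (0.03), ERBB2 (0.02), PSMB8 (1.05) and TTPA (2.43). In control animal 4 they were PCK1 (-0.75), SLC40A1 (-0.82) and SRSF7 (-0.59). The other control animals gave PLIN5 (-0.79, animal 2), AHSP (0.48, animal 3), TGFBR3 (-1.85, animal 3), SMAD6 (0.08, animal 5) and COL3A1 (-0.30, animal 6).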

How the results depend on the processing

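The count of called genes moved by over 1.5 times under 2 alternatives. With the 3′ minus 5′ difference as a covariate it was 1246 for 12 animals, 876 in control animals and 230 in anti-miR-33 animals, against 4602, 2092 and 2164 without it, and with a required change of over 0.5 (limma's treat) it was 43. Leaving out 1 animal gave 4071 to 4598. Without the replicate block of the animal it was 3997, and the other alternatives, among them another filter, normalization, probe set rule and variance model, gave 3427 to 5283. Chosen after seeing the data, leaving out the 2 animals of largest fall in the 3′ minus 5′ difference gave 3937, and leaving out control animal 1, for its diet label, with anti-miR-33 animal 5 and control animal 6, for their low highest array value, gave 3438. The difference between arms stayed at 0 calls with a random block, no filter and the covariate. Of 189 named genes, 96 lost their call with the covariate and 6 turned round: ANXA4 (-0.13), ERRFI1 (-0.14), FGG (-0.0273), LBP (-0.11), NDUFV2 (-0.0932) and THRSP (-0.0420). With the mean of a gene's probe sets, 5 turned round: CYP3A4 (-0.0268), ESR1 (0.10), PDK4 (0.17), SOCS2 (0.29) and SOX9 (-0.17). The cause was not tested. Leaving out 1 animal turned no named gene round. The fall of the 3′ minus 5′ difference was -0.33 by GAPDH alone and -0.92 by ACTB alone. Human probes on monkey RNA and the number of animals limit small changes.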
